A study of Mus musculus with 2 samples.

Results

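The genes described here encode transcription factors that keep hepatocytes in their differentiated state, together with nuclear receptors, their coregulators and factors tied to the daily clock, measured in livers of mice with and without Iah1. They are a list of 48 genes given by name. The list has no threshold on a measured value, but it was drawn up with earlier results of these data known. The platform annotation gave 46 of them at least 1 probe set with a single gene symbol, out of 22180 genes named in this way. The remaining 2, the liver X receptor gene Nr1h2 and the corepressor gene Ncor1, were not analysed here. Of the 46 genes, 45 passed an intensity filter that 11090 of all genes passed. Rxrg was the gene below it, at 4.30 in the KO array and 4.42 in the WT array on the log2 scale.

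The study compared the liver of male systemic Iah1-knockout mice (Iah1-KO) with that of male Iah1-WT mice, Iah1 being the mouse homologue of a yeast esterase that cleaves isoamyl acetate. Both genotypes ate chow until 6 weeks of age and then a high-fat diet for 12 weeks, which makes them 18 weeks old at collection, and both were deprived of food for 4 hours and killed in the early afternoon, caged singly. Liver RNA of 3 mice was pooled for each of the 2 arrays, 1 per genotype, so the spread between mice is unknown, no test was possible and the words higher and lower describe 2 arrays. The sources used here give neither how the allele was made nor the genetic background of the animals.

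In the liver, a small set of factors occupies the regulatory DNA of hepatocyte genes and of each other's genes. HNF4A is a nuclear receptor that works as a homodimer, Onecut1 (also called HNF6) and the FOXA proteins are homeodomain and forkhead proteins, and C/EBP alpha is a leucine zipper protein. Many other nuclear receptors bind DNA as partners of a retinoid X receptor (RXR) and respond to oxysterols, fatty acids, thyroid hormone, retinoic acid or foreign compounds. The PAR bZIP proteins DBP, TEF and HLF and their competitor NFIL3 carry the output of the clock to genes of drug and haem metabolism.

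The targeted transcript served as a check of the labels. Iah1 was at 3.90 in the KO array and 8.59 in the WT array, and the position of its probes relative to the deleted part is unknown here. Livers of both genotypes carried the defining hepatocyte transcripts at like levels, and 9 measured markers differed by -0.13 to 0.08 on the log2 scale (KO minus WT), with the urea cycle gene Cps1 at -0.13, Ahsg at -0.07 and Apoa2 at 0.08 farthest from 0. Markers of sinusoidal endothelium and of macrophages were lower in the KO array, while stellate cell markers lay on both sides of 0. All 13 markers of sinusoidal endothelium lay below 0, where 55.7% of all genes above the intensity filter lay. They were led by Lyve1 at -0.83, Tek at -0.66 and Oit3 at -0.62, and the log2 of their summed signal was 11.4 in KO and 11.9 in WT. All 12 macrophage and Kupffer cell markers lay below 0 as well, led by C1qb at -0.81, Vsig4 at -0.71 and Adgre1 at -0.67. Nearest 0 were C1qa at -0.22 and C1qc at -0.09, and the log2 of the summed signal was 10.7 in KO and 11.2 in WT. Of 6 measured cholangiocyte markers, Sox9 and Krt23 were above the filter, both at -0.17. In bulk tissue, fewer cells of a type and less RNA per cell cannot be told apart.

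Onecut1 was the gene of this group that differed most between the arrays. Its signal was 7.17 in the KO array and 8.33 in the WT array, which put it 1.16 below WT (KO minus WT -1.16), 2.23-fold lower. It was the 1 gene of 45 that was lower by 1.5-fold or more, and over all genes above the filter 2.45% were that low. None of the 45 was higher by 1.5-fold, against 1.47% of all genes. The share of the group past 1.5-fold is thus close to the background in the lower direction, and the result concerns Onecut1 alone.

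Among all 11090 genes, 21 were as low in KO as Onecut1 or lower, the gene itself included. With all genes split by mean signal into 4 groups of like size, 12 of these were in the group with the lowest signal. In the brightest group, where Onecut1 lies, 3 genes of 2773 were as low, and the other two were the metallothionein gene Mt2 at -1.58 and the serpin pseudogene Serpina4-ps1 at -1.55. That group of bright genes had a standard deviation of 0.16 on the log2 scale between the arrays. Genes measured by more than 1 probe set give a rough measure of the disagreement between probes. In 604 such genes above the filter, KO minus WT varied between the probe sets of a gene with a pooled standard deviation of 0.27. It covers probes, not mice or labelling. It pools dim and bright genes and exceeds the 0.16 of the bright group, so it is no error for bright genes alone. Onecut1 was measured by 1 probe set, so its value has no second probe set to set beside it.

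Onecut2, the paralogue with a like DNA-binding domain, differed far less. It was at 6.85 in the KO array and 6.95 in the WT array, a difference of -0.10. Hnf4a, which Onecut1 is known to bind and activate in the liver network, was at 10.2 in both arrays and differed by -0.07. Foxa2, another gene that Onecut1 is known to activate, was at 7.38 in KO and 7.54 in WT, a difference of -0.16.

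**Figure D1:**
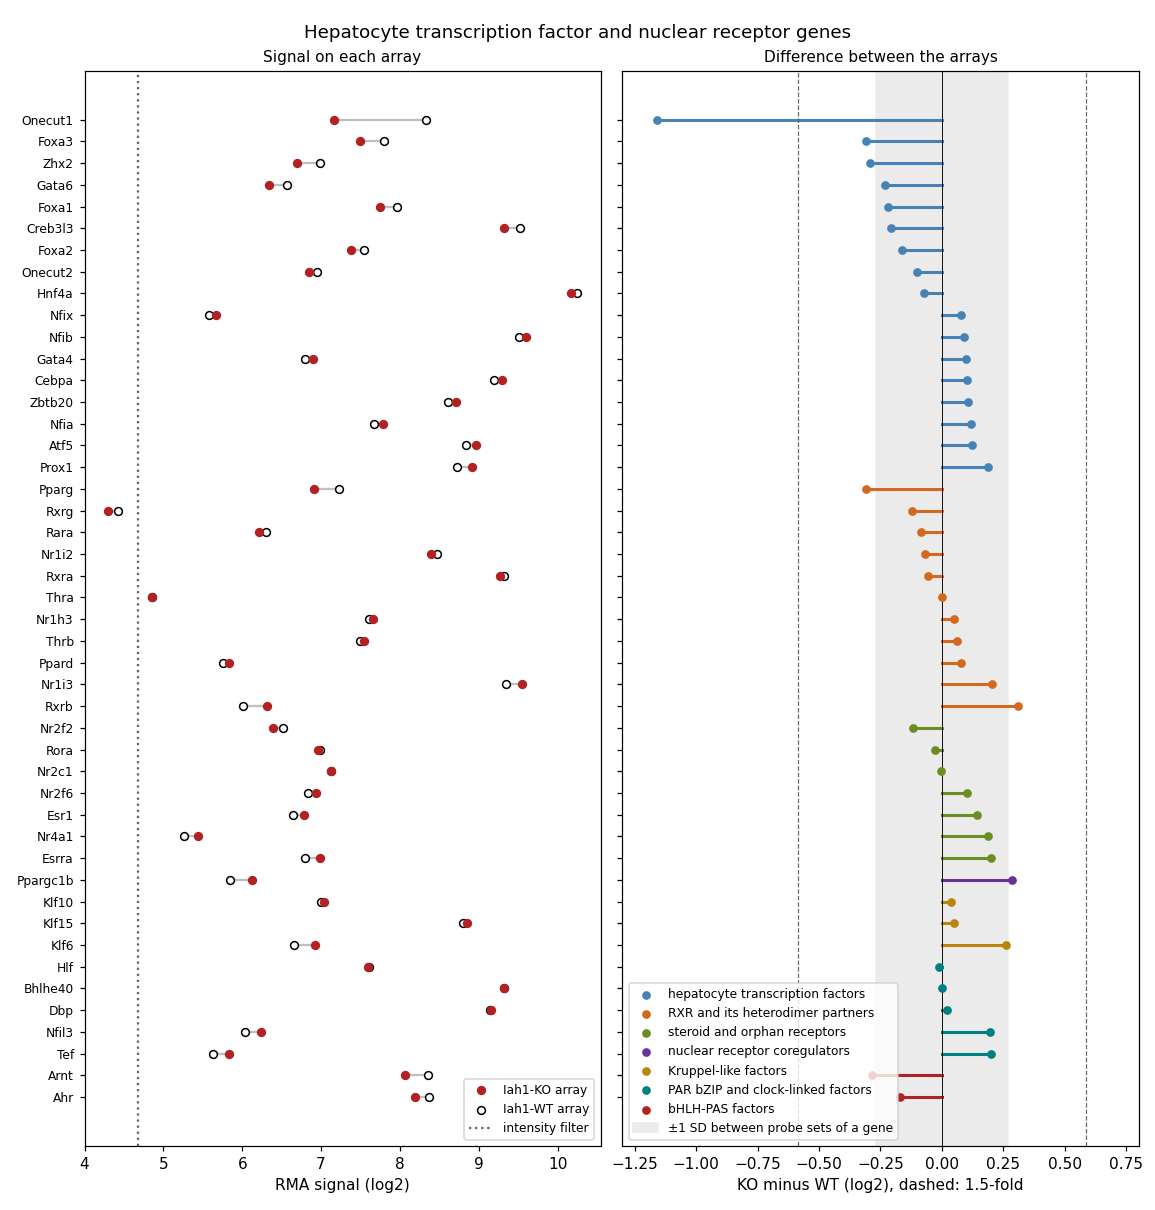
Left, RMA signal (log2) of the 46 measured genes in the Iah1-KO array (red) and the Iah1-WT array (open), with the intensity filter as a dotted line. Signals of different genes rest on different probes and are not comparable. Right, KO minus WT (log2), coloured by role, with 1.5-fold as dashed lines and 1 standard deviation between probe sets of a gene (0.27) in grey. Onecut1 lies at -1.16 and the other genes between -0.31 and 0.31.

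The DNA upstream of these genes is shown for the member that differed and for those members whose upstream DNA holds the core letters bound by its product. Sequences are from RefSeq on build GRCm38.p6, 250 bases ending just before an annotated start, 5′ to 3′ on the strand of the gene. The Onecut1 window lies at chr9:74861671-74861920 on the plus strand, with the E-box CACGTG in capitals, the site bound by clock and other basic helix-loop-helix proteins. The Hnf4a window lies at chr2:163506607-163506856 on the plus strand and the Foxa2 window at chr2:148046970-148047219 on the minus strand, with the HNF6 core ATCAAT, which reads ATTGAT where it lies on the opposite strand, in capitals.
Onecut1: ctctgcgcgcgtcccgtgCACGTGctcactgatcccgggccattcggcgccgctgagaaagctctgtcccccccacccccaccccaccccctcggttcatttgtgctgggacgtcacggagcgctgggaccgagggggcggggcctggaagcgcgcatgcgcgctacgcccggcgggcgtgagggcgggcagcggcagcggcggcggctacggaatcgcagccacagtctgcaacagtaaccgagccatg
Hnf4a: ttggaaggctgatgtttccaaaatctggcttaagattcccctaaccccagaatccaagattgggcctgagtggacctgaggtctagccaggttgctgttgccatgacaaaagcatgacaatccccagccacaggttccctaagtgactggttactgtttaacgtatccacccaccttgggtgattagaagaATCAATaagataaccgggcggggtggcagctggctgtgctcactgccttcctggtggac
Foxa2: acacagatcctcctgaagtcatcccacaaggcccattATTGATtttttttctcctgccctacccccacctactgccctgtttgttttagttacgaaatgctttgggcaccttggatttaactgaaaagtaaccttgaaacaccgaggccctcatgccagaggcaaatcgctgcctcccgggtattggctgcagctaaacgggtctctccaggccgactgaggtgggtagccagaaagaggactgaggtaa

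The HNF6 core in the Hnf4a window runs from base -59 to base -54 counted from the start, and that in the Foxa2 window from base -213 to base -208. Hnf4a has 2 windows and Foxa2 has 3 in the table, for different starts, and the core is in 1 of each. Zbtb20 and Nr2f2 also hold it, and their stretches are given for comparison, at chr16:43247058-43247087 on the plus strand and chr7:70366888-70366917 on the minus strand, with the core in capitals.
Zbtb20: gagcagtgcagaATTGATggcctgatgata
Nr2f2: atgaggattccaATTGATtcctaggaaaaa

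The fifth gene with the core was Rxrg, which lay below the filter. In all, 5 of 60 member windows held ATCAAT on either strand, 8.33%, against 6.72% of all 32851 windows, so the core was about as frequent as elsewhere. While Onecut1 was lower by 1.16, the 4 genes above the filter with the core differed by -0.16 (Foxa2), -0.12 (Nr2f2), -0.07 (Hnf4a) and 0.11 (Zbtb20). Over all genes above the filter that have a window, the median difference was -0.05 for the 400 with the core and -0.03 for the 8382 without it. A match is a run of letters and not a shown binding site.

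Windows of the member genes were richer in G and C than windows at large. The median was 60.8% in 60 windows of 38 member genes and 52.4% in all windows, and the median number of CpG steps was 12 and 6. The Onecut1 window was at 71.6% with 31 CpG steps. The GC box GGGCGG stood in 53.3% of member windows and 32.7% of all, and the E-box CACGTG in 13.3% and 6.02%. The E-box was found for Onecut1, Klf6, Klf15, Nr1i3, Rara, Tef and Thrb. The nuclear receptor hexamer AGGTCA, whose letters RXR partners read, stood in 15.0% of member windows and 14.0% of all. Neither the D-box TTANGTAA of the PAR bZIP proteins nor the C/EBP letters TTGCNNAAT were in any member window, against 2.06% and 2.11% of all windows. At shares that small, very few of the 60 windows would hold either run, so their absence is close to the share at large. Both strands were searched, GC box and CpG matches overlap, and 10 members had no window in the table.

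All 3 FOXA genes, whose products open closed chromatin in liver development, were lower in the KO array by small amounts. Foxa3 was at 7.49 in the KO array and 7.80 in the WT array, a difference of -0.31 or 1.24-fold. Foxa1 was at 7.75 in KO and 7.97 in WT, a difference of -0.22. With Foxa2 at -0.16 the 3 genes had a median of -0.22, and of them Foxa3 exceeded the standard deviation between probe sets. Foxa1 and Rxrb were the members with the forkhead letters TGTTTAC, which read GTAAACA on the opposite strand, in a window, and the stretches of both are shown, at chr12:57546234-57546264 on the minus strand and chr17:34032279-34032309 on the plus strand, with the match in capitals. TGTTTAC stood in 3.33% of member windows and 3.17% of all. A second forkhead run, TGTTTGC, stood in 8.33% of member windows and 4.3% of all, for Creb3l3, Esr1, Nfix, Nr1i2 and Prox1.
Foxa1: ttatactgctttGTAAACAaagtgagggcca
Rxrb: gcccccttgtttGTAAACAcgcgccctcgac

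The nuclear factor I genes of the group, whose products share a DNA-binding domain and are abundant in liver, were all slightly above 0. Nfia was at 7.79 in the KO array and 7.67 in the WT array, and Nfib at 9.60 in KO and 9.51 in WT. Nfix was at 5.66 in KO and 5.58 in WT, where its probe sets differed by 0.15 and 0.00 (0.0029). The probe set with 0.15 was below the filter level in both arrays, at 4.53 in KO and 4.37 in WT. The gene differences of 0.12, 0.09 and 0.08 were below the standard deviation between probe sets, which pools dim and bright genes.

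Other hepatocyte factor genes differed in both directions. Cebpa, which drives metabolic genes and holds back cell division, was at 9.29 in the KO array and 9.19 in the WT array. Prox1, a homeodomain protein that restrains HNF4A and liver X receptor activity, was at 8.91 in KO and 8.72 in WT. At 0.19, Prox1 had the largest positive difference of the hepatocyte factors. Zbtb20, a repressor of the fetal gene Afp, was at 8.72 in KO and 8.61 in WT, a difference of 0.11. Zhx2, another repressor of Afp, was at 6.70 in KO and 6.99 in WT, a difference of -0.29. Afp itself was below the filter in both arrays, at 3.57 in KO and 3.92 in WT. Of 3 measured targets of these repressors, Lpl was the 1 above the filter, and it passed through the WT array alone, at 4.57 in KO and 5.01 in WT.

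The membrane-bound factor gene Creb3l3, active in fasting and in lipoprotein metabolism, was at 9.32 in the KO array and 9.53 in the WT array, a difference of -0.21. Its known targets were mostly on the other side of 0. Of 6 such genes, 5 lay above it (83.3%, against 44.3% of all genes), with a median of 0.22. The largest difference was that of the hormone gene Fgf21, at 5.35 in KO and 4.70 in WT (1.57-fold higher). Fgf21 was dim, and its WT value lay just above the filter of 4.68. Next by size were the apolipoprotein genes Apoa4 at 0.45 and Apoc2 at 0.22. Atf5, a stress-linked leucine zipper gene, was at 8.97 in KO and 8.84 in WT, a difference of 0.12. The zinc finger genes Gata4 and Gata6, which act in hepatocytes and in other liver cells too, differed in opposite directions. Gata4 was at 6.89 in KO and 6.79 in WT, and Gata6 at 6.34 in KO and 6.57 in WT.

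Of the 17 hepatocyte factors, 8 lay above 0 and 9 below, with a median of -0.07. The median of all genes above the filter was -0.02, and 55.7% of them lay below 0. Onecut1 apart, no member of this role differed by 0.32 or more on the log2 scale, a ratio of 5 to 4. Of all genes above the filter, 6.62% were that much higher and 10.4% that much lower. In the brightest of the 4 signal groups, which holds Onecut1 and many of these factors, those shares were 1.12% and 3.28%.

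The RXR genes differed among themselves. Rxra, the main RXR of hepatocytes, was at 9.26 in the KO array and 9.32 in the WT array, a difference of -0.06. Rxrb was at 6.32 in KO and 6.01 in WT, a difference of 0.31 or 1.24-fold, the largest positive difference of the group. Rxrb was below the mark of 0.32 as deposited and passed it when the median difference of all genes was subtracted, when the arrays were normalized again by quantiles and after a loess fit.

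RXR partners were mostly level between the arrays. Nr1h3, the liver X receptor alpha gene, was at 7.66 in the KO array and 7.61 in the WT array. Nr1i2, which encodes the pregnane X receptor (PXR), was at 8.39 in KO and 8.46 in WT. Nr1i3, which encodes the constitutive androstane receptor (CAR), was at 9.55 in KO and 9.35 in WT, a difference of 0.20. CAR and PXR are the foreign-compound sensors of the liver and share target genes. The retinoic acid receptor gene Rara was at 6.21 in KO and 6.30 in WT.

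Both thyroid hormone receptor genes were near 0. Thrb, the main form in liver, was at 7.55 in the KO array and 7.49 in the WT array, and Thra was at 4.85 in both. Ppard, which encodes the broadly expressed fatty acid sensor PPAR delta, was at 5.84 in KO and 5.76 in WT.

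Pparg, the adipogenic receptor gene that is induced in fatty liver and is also used by macrophages and endothelium, was lower. It was at 6.91 in the KO array and 7.22 in the WT array, a difference of -0.31 or 1.24-fold. Endothelial and macrophage markers were lower in the same array (medians -0.45 and -0.47), and their part in the Pparg value was not tested. Targets of PPAR gamma in fatty liver went both ways. Of 10 genes, 6 lay above 0 (60.0%, against 44.3% of all genes), with a median of 0.03. The 10 ran from the lipoprotein receptor gene Vldlr at -0.57 to the acyltransferase gene Mogat1 at 0.52.

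Of the 10 genes of RXR and its partners above the filter, 6 lay above 0 (60.0%, against 44.3% of all genes), with a median of 0.02. None differed by 0.32 or more in either direction. Over the whole group of 45 genes, Onecut1 was the 1 gene past 0.32 (2.22%, against 17.0% of all genes). Beyond the standard deviation between probe sets, 0.27, lay 7 of the 45 genes (15.6%, against 22.7% of all genes): Onecut1, Foxa3, Pparg, Zhx2 and Arnt below 0, and Rxrb and Ppargc1b above it.

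**Figure D2:**
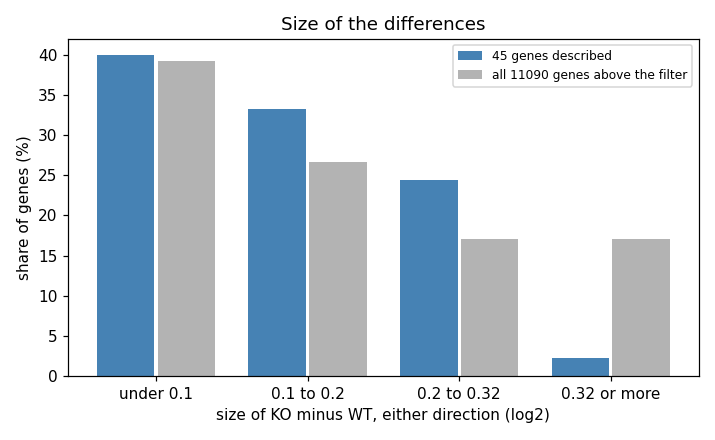
Share of genes (%) by the size of KO minus WT in either direction (log2), for the 45 genes described (blue) and all 11090 genes above the filter (grey). In the bin at 0.32 or more the shares were 2.22% and 17.0%, and in the bin from 0.2 to 0.32 they were 24.4% and 17.1%. The genes were not matched for signal.

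The size of a difference depends on brightness, which bears on this comparison. With the genes above the filter in 4 equal groups from dim to bright, the median size of the difference over all genes was 0.22 in the dimmest group and 0.08 in the brightest. Of the 45 genes, 2 were in the dimmest group, 7 and 16 in the next and 20 in the brightest. The members' median size was 0.09 against 0.22 for all genes in the dimmest group, with 2 members. It was 0.20 against 0.16 for all genes in the second group, 0.11 against 0.12 in the third and 0.11 against 0.08 in the brightest. Without regard to brightness it was 0.12 for the members and 0.14 for all genes.

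**Figure D3:**
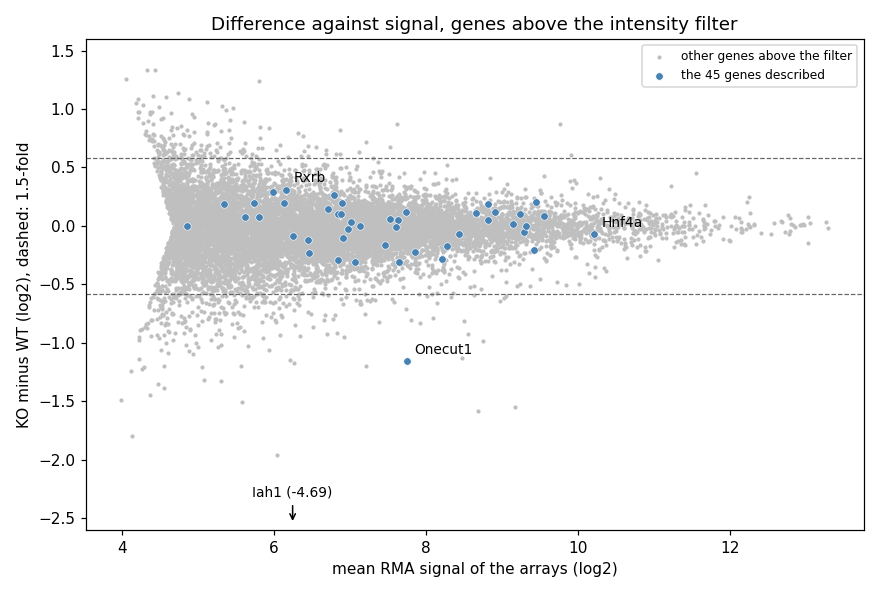
KO minus WT (log2) against the mean signal of the arrays (log2) for all genes above the filter (grey) and the 45 genes described (blue), with 1.5-fold as dashed lines. The spread narrows as signal grows, Onecut1 lies at -1.16 among bright genes, and Iah1 at -4.69 is off the scale.

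Steroid and orphan receptor genes stayed between -0.12 and 0.20. Esr1, the estrogen receptor alpha gene, was at 6.79 in the KO array and 6.64 in the WT array. Esrra, an orphan receptor that acts on mitochondrial genes, was at 6.99 in KO and 6.79 in WT, a difference of 0.20. Its coactivator gene Ppargc1b (PGC-1 beta) was higher too, at 6.13 in KO and 5.84 in WT, a difference of 0.29 or 1.22-fold. Ppargc1b passed 0.32 after the loess fit.

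Nr2f2, which encodes COUP-TFII and is known in stellate cells, veins and hepatocytes, was at 6.39 in the KO array and 6.51 in the WT array. Its relative Nr2f6 was at 6.94 in KO and 6.84 in WT. The immediate early receptor gene Nr4a1 was at 5.44 in KO and 5.25 in WT, a difference of 0.19. Rora, an activator of clock and lipid genes, was at 6.95 in KO and 6.98 in WT, and the orphan receptor gene Nr2c1 was at 7.13 in both. The signs of Rora and Nr2c1 (-0.03 and -0.00) turned under another scaling.

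The 3 Krüppel-like factor genes of the group all lay above 0, where 44.3% of all genes lay. Outside the group, Klf9 (-0.37), Klf2 (-0.06) and Klf3 (-0.004) lay below 0 and Klf13 (0.15) above it. Klf6, a wound-response gene that stellate and endothelial cells also express, was at 6.92 in the KO array and 6.66 in the WT array, a difference of 0.26. Stellate markers lay on both sides of 0, with 7 of 10 below it (70.0%, against 55.7% of all genes) and a median of -0.18. Among them Lrat was at -0.52 and Ngfr at -0.39, and Des, which passed the filter through the KO array alone, was at 4.68 in KO and 3.75 in WT. The part of these and of the endothelial markers in the Klf6 value was not tested. Klf15, a factor of amino acid use in fasting, was at 8.84 in KO and 8.79 in WT. Klf10, a clock-linked and TGF-beta-induced gene, was at 7.04 in KO and 7.00 in WT.

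The clock-linked genes Dbp, Hlf and Bhlhe40 were level between the arrays. Dbp, whose transcript cycles with a large amplitude in mouse liver, was at 9.16 in the KO array and 9.14 in the WT array, a difference of 0.02. Hlf was at 7.60 in KO and 7.61 in WT, with a sign that turned under another scaling. Bhlhe40, a repressor in the clock, was at 9.32 in both arrays.

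Tef and Nfil3 were slightly higher in KO. Tef was at 5.83 in the KO array and 5.63 in the WT array, with differences of 0.35 for its brighter probe set and 0.04 for the dimmer. The dimmer probe set was below the filter level in both arrays, at 4.49 in KO and 4.45 in WT. Nfil3, which represses from the sites that DBP, TEF and HLF activate, was at 6.23 in KO and 6.04 in WT, a difference of 0.20. Of 9 core clock genes above the filter, 7 lay above 0 (77.8%, against 44.3% of all genes), with a median of 0.03. Cry1, a repressor of the clock, was the 1 gene past 0.32, at 5.77 in KO and 5.38 in WT. Next by size were Cry2 at 0.18 and Per1 at -0.15. Of 6 targets of the PAR bZIP proteins, 5 lay above 0 (83.3%, against 44.3% of all genes), with a median of 0.18. They include Nr1i3, and the coumarin hydroxylase gene Cyp2a5 at 5.35 in KO and 4.88 in WT (0.47). Cyp2b10, also a target of CAR and PXR, was at 4.81 in KO and below the filter in WT, at 4.58. Alas1, the brightest of the 6 targets, was the 1 below 0, at -0.14. The log2 of the summed signal of the 6 was 11.5 in both arrays.

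The dioxin receptor gene Ahr and the gene of its partner Arnt were both lower. Arnt was at 8.07 in the KO array and 8.35 in the WT array, a difference of -0.28 or 1.22-fold. Ahr was at 8.20 in KO and 8.36 in WT, a difference of -0.17. Of 7 targets of this pair, 5 were below the filter in both arrays, among them Cyp1a1 at 3.80 in KO and 3.94 in WT. The 2 above it differed in opposite directions. Nqo1, a quinone reductase gene, was at 6.36 in KO and 6.08 in WT, a difference of 0.28, and Cyp1a2, which hepatocytes express without an inducer, was at 9.64 in KO and 9.71 in WT, a difference of -0.07.

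Known targets of liver X receptors were lower as a list, with 10 of 11 below 0 (90.9%, against 55.7% of all genes). Their median was -0.29, while Nr1h3 differed by 0.05. Cyp7a1, whose product starts the conversion of cholesterol to bile acids, was at 8.08 in the KO array and 9.01 in the WT array (1.90-fold lower), and the cholesterol exporter gene Abcg1 at 5.68 in KO and 6.33 in WT (1.57-fold lower). The member above 0 was the desaturase gene Scd1, at 12.4 in KO and 12.1 in WT. In all, 5 of 11 were lower by 0.32 or more, where 10.4% of all genes were. One of the 5, Lpl, passed the filter through the WT array alone and was at least 1.26-fold lower in KO against the filter. Abcg1, Abca1, Lpl and Pltp are macrophage genes as well, and the part of the lower macrophage markers in this list was not tested.

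HNF4A targets were near 0, with 9 of 11 slightly above it (81.8%, against 44.3% of all genes) and a median of 0.08. The apolipoprotein genes at both ends were Apoa4 at 0.45 and Apoc3 at -0.40 (-0.4050), and the bile acid enzyme gene Cyp8b1 was next at 0.28. CAR and PXR targets were split evenly, 6 above and 6 below 0, with a median of 0.03. The cytochrome gene Cyp2c55 was at 5.56 in the KO array and 5.20 in the WT array, a difference of 0.36. The transporter gene Slco1a4 was at 7.97 in the KO array and 7.63 in the WT array, and the transporter gene Abcc4 at 4.32 in KO, below the filter, and 4.86 in WT. Thyroid hormone targets had 4 of 7 above 0 (57.1%, against 44.3% of all genes) and a median of 0.08. They ran from Klf9, itself a Krüppel-like factor gene, at -0.37 to the malic enzyme gene Me1 at 0.41, with the lipogenic gene Thrsp at 0.32.

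Among liver factor genes outside the group, 18 were above the filter, with a median size of difference of 0.20, and 2 of them passed 1.5-fold. Over all genes above the filter, the median size was 0.14 and 3.92% passed 1.5-fold in either direction. Bcl6, a repressor that growth hormone signalling keeps low, was at 8.06 in the KO array and 7.18 in the WT array (1.83-fold higher). Hhex, a homeodomain gene of hepatoblasts that endothelium also expresses, was at 6.80 in KO and 7.46 in WT (1.58-fold lower). The sterol-regulated factor gene Srebf2 was next, at 6.98 in KO and 6.54 in WT, a difference of 0.44. Over the 18 genes the median was -0.04, and 7 lay above 0 (38.9%, against 44.3% of all genes).

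**Figure D4:**
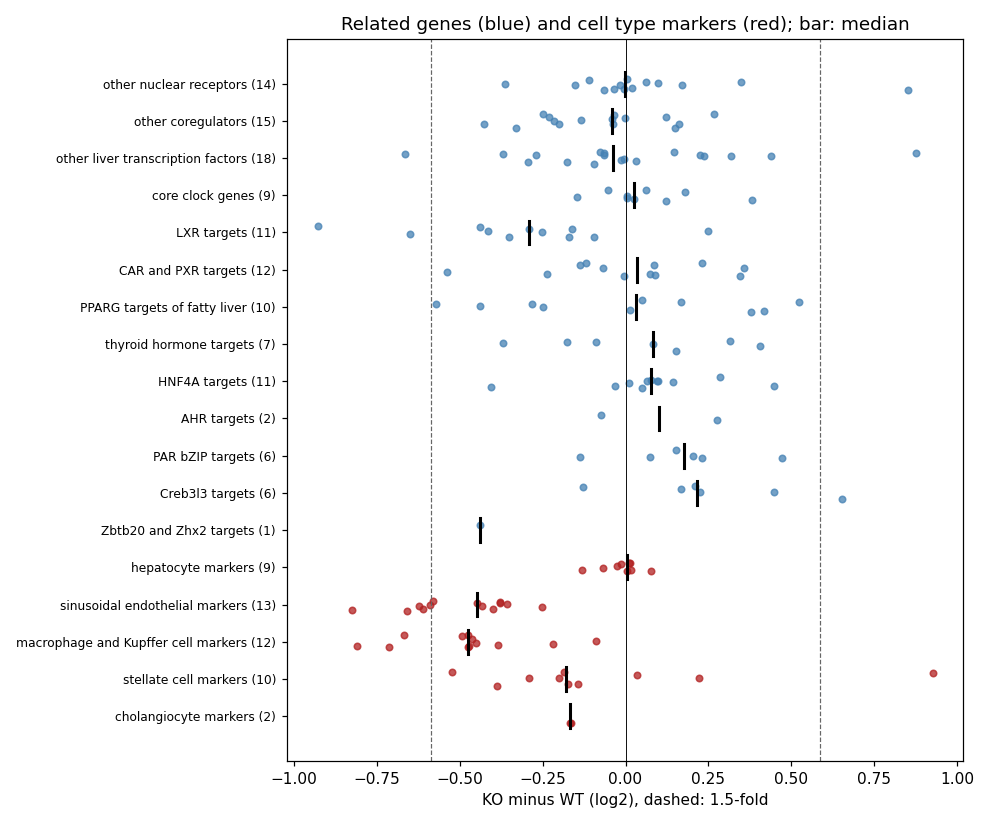
KO minus WT (log2) of genes above the filter in lists of related genes (blue) and cell type markers (red), with the number of genes in brackets, the median as a black bar and 1.5-fold as dashed lines. LXR targets (median -0.29), endothelial markers (-0.45) and macrophage markers (-0.47) lie mostly below 0, while hepatocyte markers centre on 0.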

How the data were processed

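Total RNA was labelled from 100 ng with the Affymetrix WT PLUS kit, per the labels' protocols. The deposited table holds 1 log2 value per probe set and array; RMA and Affymetrix Expression Console 1.3.0 are named per the submitters' processing notes. RMA equalizes the arrays' distributions, so a shift common to all transcripts is removed, and it compresses differences of dim probe sets. Genome build and detection calls are not given in the sources used here. Of 41345 probe sets, 23521 had 1 gene symbol and were used; 1814 had several, 2 of them with a member (Zbtb20, Ppard) among their symbols, and were left out. Gene values are means over probe sets (Python 3.11.15, pandas 2.3.3). The intensity filter kept genes whose brighter array was at or above 4.68, the median of that value over all genes; it is no detection limit. Where 1 array lay below it, a fold given with the words at least takes the filter in its place. Counts and shares use the plain KO minus WT difference, also where 1 array lay below the filter. With 1 array per genotype, genes were counted at 1.5-fold (0.58 on the log2 scale) and at 0.32 on the log2 scale (a ratio of 5 to 4), without a test. The counting steps were tested on simulated data. The simulated differences lay well past the thresholds and the simulated noise was below the spread between these arrays. The test covers the code and not the reliability of the counts.

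Members and lists were chosen with earlier results of these data known. The text names every measured member, Iah1, and up to 3 genes of each list with the largest absolute difference; further list genes were named after their values were seen. Promoter windows came from RefSeq (GRCm38.p6). The number of arrays limits precision.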

Additional observations from a re-analysis of the deposited data

How the results depend on the processing

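Each of the 45 genes was recomputed without the intensity filter, with a filter at the 75th percentile (6.52), after a loess fit (span 0.4), after quantile normalization again, after subtraction of the median difference and from only the brightest probe set where a gene had several. Onecut1, at -1.16 as deposited, lay between -1.13 and -1.12 under the 3 settings that can move a gene with 1 probe set, which are the loess fit, quantile normalization and subtraction of the median; the filters and the choice of probe set leave its value as it is. In each of the 6 it was the 1 gene lower by 0.32 or more on the log2 scale. Over all genes, 5.7% to 11.2% were that low under these settings. The largest move of any of the genes was 0.16, below the standard deviation between probe sets, for Tef with its brighter probe set. Signs turned for 3 genes, Rora, Nr2c1 and Hlf, none over 0.03 in size. The count of genes higher by 0.32 or more was 0 as deposited and 2 after the loess fit (Rxrb and Ppargc1b). It was 1 after quantile normalization again and 1 after subtraction of the median difference (Rxrb both times), and 1 with the brightest probe set (Tef). Rxrb and Ppargc1b lay just under the threshold, at 0.31 and 0.29. The median difference of all genes was -0.02, and its subtraction put Rxrb at 0.33. The loess fit put Rxrb at 0.36 and Ppargc1b at 0.34. Tef passed once its dimmer probe set, at 0.04, was left out. Under those settings 6.54% to 8.05% of all genes were that high. The stricter filter left 35 of the genes. No paired analysis was possible because each genotype has 1 array of pooled RNA. No setting adds information on the spread between mice, and Onecut1 rests on 1 probe set.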

Other observations

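Coregulators of nuclear receptors outside the group were mostly slightly lower in the KO array. Of 15 above the filter, 11 lay below 0 (73.3%, against 55.7% of all genes). Their median was -0.04, against -0.02 for all genes. The coactivator gene Ncoa6 was at 6.81 in KO and 7.24 in WT, a difference of -0.43, and the corepressor gene Nrip1 at 6.70 in KO and 7.03 in WT, a difference of -0.33. Pprc1, a relative of Ppargc1b, was higher like it, at 5.85 in KO and 5.59 in WT.

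Of 26 other nuclear receptor genes measured, 12 were below the filter in both arrays. The 14 above it had a median difference of -0.00 (-0.0006), with 7 above and 7 below 0. Rarg, a retinoic acid receptor gene, passed the filter through the KO array alone, at 5.21 in KO and 4.36 in WT, and was at least 1.44-fold higher against the filter. Nr0b2, a receptor-like repressor without a DNA-binding domain that acts on Cyp7a1, was at 7.39 in KO and 7.04 in WT, a difference of 0.35, and Vdr, the vitamin D receptor gene, was at 4.37 in KO, below the filter, and 4.73 in WT.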
